A study of Rattus norvegicus with 21 samples.

Results

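The genes described here are the cyclins, cell cycle kinases and centromere genes of rat bone marrow mesenchymal stem cells, 106 of the 9998 genes in the expression table in hand. They were chosen by name, with earlier results of these data known: every gene symbol that begins with Cdc and a number, Cdca, Cenp, E2f or Aurk, the numbered A, B, D and E cyclins, the numbered Cdk genes, and Bub1, Bub1b, Bub3, Birc5, Cks1b, Cks2, Gmnn, Espl1, Dbf4 and Cdt1. By role they were divided into 18 entry genes, 6 replication genes, 28 mitosis genes, 18 centromere genes and 36 others, which carry such a name but have no settled part in the cycle engine, Cdc42 and its effectors among them. The centromere class took every Cenp symbol and the entry class every E2f symbol by name, so a member need not act at the centromere or at entry. Of the 106, 103 had enough counts to be tested. The 3 that did not were the cyclin genes Ccna1 with 1 to 7 counts per library and Ccnb3 with 0 to 1, and Ccnb1ip1 with 1 to 13.

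RNA was sequenced in 21 libraries of wild-type (WT) cells, 3 in each of 7 groups. Control had no treatment in its label. The other 6 groups all carried the treatment label SFSN, from the self-feedback synaptic networks of the study's title, and each took the name of a cell fate: SFSN-EC for endothelial cells, SFSN-Ot for osteoblasts, SFSN-TC for tendon cells, SFSN-FB for fibroblasts, SFSN-Neu for neuron-like cells and SFSN-Adipo for adipocytes. Every library was labelled as the stem cell, not as the fate. No passage, culture time or agent was given in the labels, and nothing in them says whether replicates came from separate animals or cultures, so the p-values measure the spread between these libraries, which may be technical.

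Cyclins are short-lived proteins that switch on the cyclin-dependent kinases (Cdk). D cyclins with Cdk4 and Cdk6, then E cyclins with Cdk2, carry a cell from growth into DNA synthesis by releasing the E2F transcription factors. Cdc6, Cdt1, Cdc7 and Cdc45 load and start the replication machinery, cyclins A and B with Cdk1 drive mitosis, and the centromere proteins attach each chromosome to the spindle. Many of the later genes are transcribed only as a cell nears division, and mesenchymal stem cells in culture are a dividing population. In bulk RNA a larger share of dividing cells and more RNA per dividing cell cannot be told apart.

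Library totals over the table were 8113600 to 8934239 counts, and the table reached Map2k1 in alphabetical order, so that Mki67, the Mcm genes, Pcna, Plk1 and Top2a were not analysed here. The 9 mesenchymal stem cell markers in the table were all counted in every library, from Lepr at 0.18 to 0.85 TPM (transcript abundance per length, which allows genes to be compared) to Col1a1 at 6610 to 10135 TPM. Library 1 of SFSN-EC and library 2 of SFSN-Neu stood apart from the other libraries of their groups, and in Cdk6 they lay at 30.1 and 23.7 CPM (counts scaled to library size) where the other 4 libraries of the same groups lay between 41.6 and 53.3. Their part in each count is given by leaving both out. All comparisons with Control use the same 3 Control libraries, so the 6 are not independent of each other.

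Genes were compared in a single edgeR quasi-likelihood fit of all 6659 genes that passed the filter on low counts, and a gene is called higher or lower where its Benjamini-Hochberg adjusted p is under 0.05. Mitosis and centromere genes made up most of the higher calls. Against Control, the mean of the 6 SFSN groups was higher in 39 of the 103 cycle genes and lower in 16, where 23.5% of all genes tested were called higher and 22.4% lower. Their median log2 fold change was 0.10, and that of all genes tested was 0.01. By role, the higher and lower calls were 14 and 1 of 26 mitosis genes (median log2 fold change 0.27), 10 and 0 of 18 centromere genes (0.25), 3 and 0 of 6 replication genes (0.20), 7 and 5 of 18 entry genes (0.03) and 5 and 10 of the 35 others (-0.12, which becomes 0.07 under total-count scaling).

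The groups did not share this pattern evenly. SFSN-Adipo had 43 cycle genes called higher and 14 lower, against a background of 19.7% and 16.8% of all genes tested. SFSN-TC had 39 higher and 12 lower (background 19.3% and 18.8%), and SFSN-EC 38 higher and 7 lower (background 17.7% and 15.6%). In SFSN-Neu 34 were higher and 12 lower (background 20.1% and 17.9%). SFSN-Ot had 27 higher and 18 lower (background 20.2% and 19.3%), and SFSN-FB 22 higher and 21 lower, close to its background of 21.5% and 21.2% in both directions. Without the 2 libraries that stand apart, the counts were 35 higher and 11 lower in SFSN-EC, 36 and 12 in SFSN-Neu, 47 and 19 in SFSN-Adipo, 45 and 17 in SFSN-TC, 33 and 20 in SFSN-Ot, 24 and 25 in SFSN-FB, and 41 and 23 for the mean. The shares of all genes called in that fit are not given here, so these counts have no background beside them.

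The split between higher and lower calls moved with the scaling. Scaling by total counts raised the median of all genes by 0.16 to 0.22 on the log2 scale in every comparison with Control, and with it the cycle genes called higher and lower became 62 and 4 for the mean of the 6 groups, 67 and 5 in SFSN-EC, 48 and 8 in SFSN-Ot, 64 and 7 in SFSN-TC, 34 and 13 in SFSN-FB, 65 and 5 in SFSN-Neu and 60 and 6 in SFSN-Adipo. On log2 TPM, where the median of all genes moved by 0.10 to 0.19, the splits were 60 and 5, 52 and 6, 43 and 6, 64 and 6, 33 and 14, 44 and 7, and 63 and 5 in the same order. Mitosis and centromere genes stayed on the higher side under each scaling, with 22 and 14 called higher for the mean under total-count scaling, 22 and 13 on log2 TPM, and 0 lower in both. Their median log2 fold changes for the mean were 0.46 and 0.44 under total-count scaling and 0.40 and 0.35 on log2 TPM. These medians include the rise of all genes given above. The shares of all genes called under these 2 scalings are not given here, so the counts have no background beside them. The other genes did not keep their side, with medians of 0.07 and 0.06. All values elsewhere are on the TMM scale, whose median over all genes tested was 0.00 to 0.02, and are changes relative to the typical gene.

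**Figure D1:**
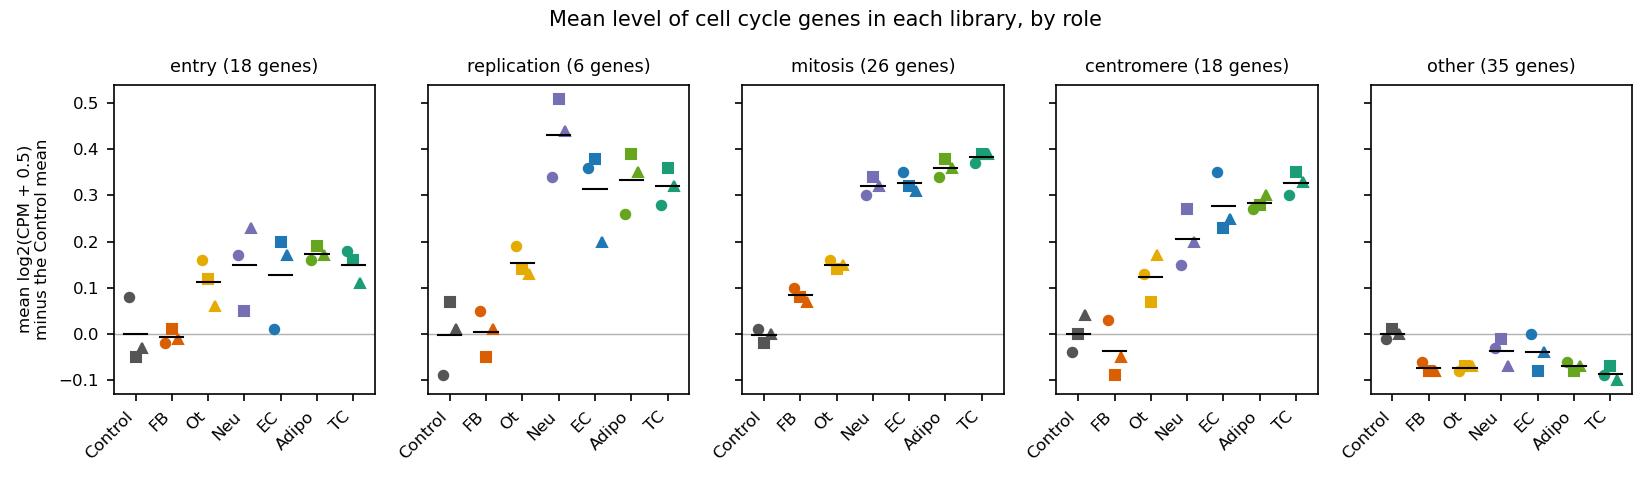
Mean level of the tested cycle genes of each role in each of the 21 libraries, as the mean over genes of log2(CPM + 0.5) minus the Control mean (y axis), by group (x axis). Circles, squares and triangles are libraries 1, 2 and 3, and bars are group means. Mitosis genes lie at 0.30 to 0.39 in SFSN-Neu, SFSN-EC, SFSN-Adipo and SFSN-TC, at 0.14 to 0.16 in SFSN-Ot and at 0.07 to 0.10 in SFSN-FB, with Control at -0.02 to 0.01.

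Averaged per library, the 26 mitosis genes ordered the groups without overlap between the upper and lower sets. Their mean log2 difference from Control was 0.37 to 0.39 in the SFSN-TC libraries, 0.34 to 0.38 in SFSN-Adipo, 0.31 to 0.35 in SFSN-EC and 0.30 to 0.34 in SFSN-Neu. These 4 groups overlap or touch each other in that order. SFSN-Ot followed at 0.14 to 0.16 and SFSN-FB at 0.07 to 0.10, both apart from the 4 groups and from Control. Centromere genes gave 0.30 to 0.35 in SFSN-TC and -0.09 to 0.03 in SFSN-FB, the latter within or under the Control range of -0.04 to 0.04. Entry genes overlapped more between groups: SFSN-FB lay at -0.02 to 0.01, SFSN-Ot at 0.06 to 0.16, SFSN-TC at 0.11 to 0.18, SFSN-Adipo at 0.16 to 0.19, SFSN-EC at 0.01 to 0.20 and SFSN-Neu at 0.05 to 0.23, with Control itself at -0.05 to 0.08.

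**Figure D2:**
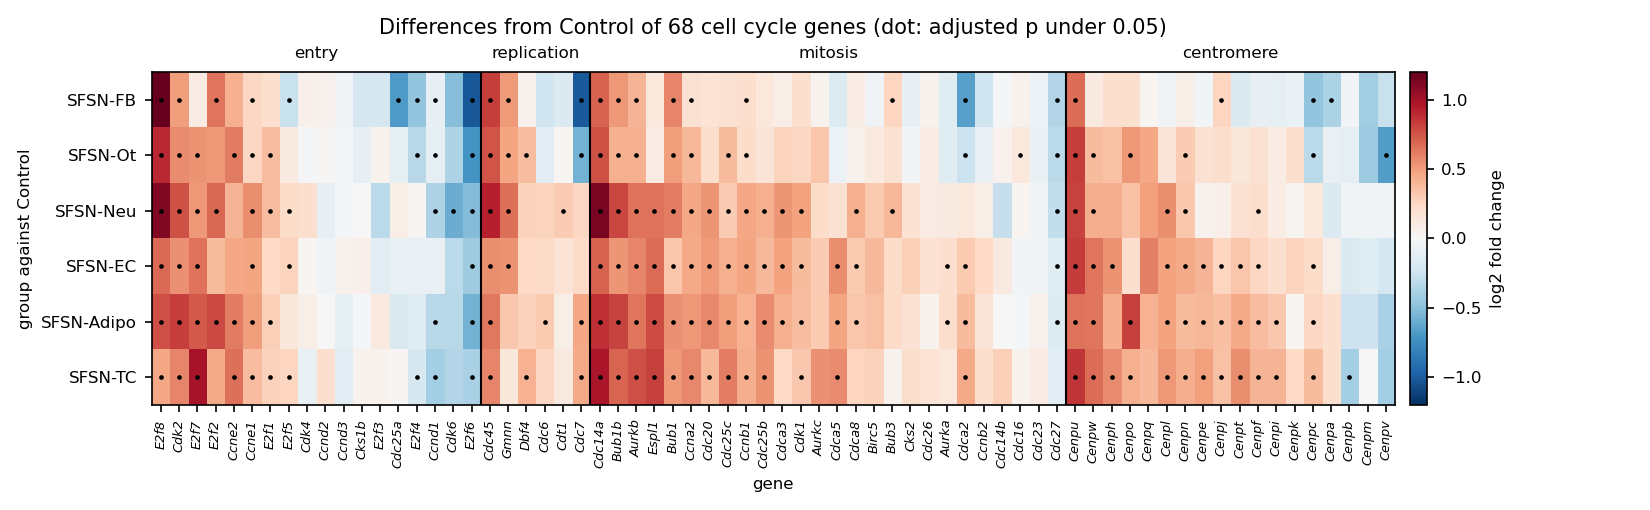
Log2 fold change against Control (colour) of the 68 tested entry, replication, mitosis and centromere genes (x axis) in the 6 SFSN groups (y axis), ordered within each role by the mean over groups. Black dots mark genes with an adjusted p under 0.05 (edgeR). Cdc45, Cdc14a, Bub1b, Aurkb, Bub1, Ccna2 and Cenpu carry a dot in all 6 groups, and E2f6 is lower in all 6.

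Among the entry genes, the E cyclin and Cdk2 side was higher and the D cyclin side was not. Cdk2 (gene ID 362817), the kinase that E cyclins activate, lay at 21.5, 21.7 and 21.8 CPM in the Control libraries, at 28.7 to 33.6 in SFSN-EC, 31.7 to 32.6 in SFSN-Ot, 31.1 to 33.9 in SFSN-TC, 29.3 to 31.8 in SFSN-FB, 33.5 to 38.8 in SFSN-Neu and 35.7 to 42.1 in SFSN-Adipo. Every SFSN library was above every Control library. The log2 fold change was 0.63 ± 0.06 (SE) for the mean of the groups (adjusted p = 1.84e-07, edgeR), and between 0.50 ± 0.08 in SFSN-FB and 0.83 ± 0.08 in SFSN-Adipo. SFSN-Adipo also lay above the 5 remaining SFSN groups' mean, by 0.24 ± 0.06 (adjusted p = 0.0113, edgeR), a call lost without its library 2 or 3.

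Ccne1, which encodes cyclin E1, was at 39.8 to 41.8 CPM in Control and at 45.6 to 63.2 in the 18 SFSN libraries, with no overlap. Its log2 fold changes ran from 0.25 ± 0.08 in SFSN-Ot and SFSN-FB to 0.56 ± 0.08 in SFSN-Neu, each called (adjusted p = 0.0173, 0.0156 and 1.85e-05, edgeR). The SFSN-FB call was lost without library 1 of that group, and the SFSN-Ot call without its library 3, Control library 2 or Control library 3. Ccne2, the second cyclin E, was called higher in SFSN-Ot, SFSN-TC and SFSN-Adipo, with log2 fold changes of 0.62 ± 0.18, 0.66 ± 0.18 and 0.62 ± 0.18, but Control itself ran from 29.4 to 42.9 CPM and the mean over groups (0.53 ± 0.15, adjusted p = 0.00617, edgeR) was no longer called without Control library 2, nor were SFSN-Ot and SFSN-Adipo.

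The D cyclins, which link growth signals to the cycle, were among the most abundant cycle transcripts per length. In Control, Cdk4 stood at 184 TPM, Ccnd3 at 105, Ccnd1 at 93.1 and Ccnd2 at 44.3, compared with 17.4 for Ccne1 and 9.23 for Ccne2 (group means). Cdk4, Ccnd2, Ccnd3 and Cks1b, which encodes a small Cdk-binding subunit, were called in none of the 6 comparisons with Control, with log2 fold changes from -0.20 to 0.20. Ccnd2 varied most within groups: SFSN-EC library 1 and SFSN-Neu library 2 were at 37.5 and 36.4 CPM, while the other libraries of those groups lay between 77.8 and 84.0. Cdk6, the other partner of the D cyclins, was called lower in SFSN-Neu, with a log2 change of -0.60 ± 0.22 (adjusted p = 0.0443, edgeR), and in the mean of the groups (-0.41 ± 0.16, adjusted p = 0.049, edgeR). Without SFSN-Neu library 2 the SFSN-Neu value was -0.35 and not called (adjusted p = 0.2, edgeR), and both calls were lost without Control library 1.

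Ccnd1 was the exception among the D cyclins. It stood at 468 to 476 CPM in Control, 434 to 447 in SFSN-EC, 433 to 440.0 in SFSN-Ot, 420.0 to 462 in SFSN-FB, 366 to 389 in SFSN-Adipo, 358 to 371 in SFSN-Neu and 349 to 358 in SFSN-TC. Every SFSN library was under every Control library, and the SFSN-TC, SFSN-Neu and SFSN-Adipo libraries lay under all others. The log2 changes were -0.41 ± 0.04 in SFSN-TC, -0.37 ± 0.04 in SFSN-Neu and -0.33 ± 0.04 in SFSN-Adipo (adjusted p = 8.9e-08, 3.33e-07 and 1.7e-06, edgeR). The smaller changes of SFSN-Ot (-0.11 ± 0.04) and SFSN-FB (-0.10 ± 0.04) turned positive and were not called under total-count scaling (0.04 and 0.08) and on log2 TPM (0.04 and 0.03), and SFSN-EC was not called (-0.09 ± 0.04, adjusted p = 0.064, edgeR). SFSN-Adipo and the mean of the groups were also not called on log2 TPM. Per length, SFSN-EC stood at 95.7 ± 10.7 TPM (SD, n = 3) and Control at 93.1 ± 4.31.

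The E2F factors moved in both directions. E2f8 and E2f7, atypical E2Fs known as repressors of other E2F targets, were higher, and E2f6, also known as a repressor, was lower. E2f6 fell from 111 to 113 CPM in Control to 80.9 to 85.6 in SFSN-EC, 83.7 to 88.0 in SFSN-TC, 73.4 to 81.0 in SFSN-Neu, 73.6 to 77.2 in SFSN-Adipo, 67.7 to 68.5 in SFSN-Ot and 53.0 to 56.7 in SFSN-FB. SFSN-Ot and SFSN-FB lay under all other libraries and did not overlap each other. The log2 change was -0.61 ± 0.03 for the mean of the groups and -1.02 ± 0.05 in SFSN-FB (adjusted p = 9.46e-11 and 1.25e-11, edgeR). The smallest change, -0.39 ± 0.05 in SFSN-TC, was not called on log2 TPM.

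E2f8 lay at 5.80, 8.06 and 8.56 CPM in Control and at 17.2, 17.7 and 17.5 in SFSN-FB, where its log2 fold change was 1.22 ± 0.13 (adjusted p = 8.4e-07, edgeR). SFSN-Neu was close, at 15.0 to 17.4 CPM and 1.11 ± 0.14, and SFSN-TC was lowest, at 9.45 to 11.6 CPM and 0.46 ± 0.14 (adjusted p = 0.0139, edgeR), a call lost without SFSN-TC library 1 or Control library 3. E2f7 showed another order: it was at 20.3 to 24.1 CPM in SFSN-TC (0.99 ± 0.15, adjusted p = 3.9e-05, edgeR), 10.1 to 12.1 in Control and 10.6 to 12.2 in SFSN-FB (0.10 ± 0.16, not called). Against the remaining SFSN groups' mean, the log2 difference of E2f7 was 0.48 ± 0.11 in SFSN-TC and -0.59 ± 0.12 in SFSN-FB (adjusted p = 0.00465 and 0.0013, edgeR). For E2f8 the same differences were -0.48 ± 0.10 and 0.44 ± 0.10 (adjusted p = 0.00373 and 0.00232, edgeR). The SFSN-TC difference in E2f7 was not called without SFSN-TC library 2.

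E2f1, an activating E2F, was called higher in SFSN-Ot and SFSN-Neu (0.37 ± 0.10 in each) and, less surely, in SFSN-TC (0.28 ± 0.10) and SFSN-Adipo (0.29 ± 0.10), where neither DESeq2 nor fits without Control library 1 or 2 called it. Cdc25a, the phosphatase that removes the inhibitory mark from Cdk2, stood at 41.6 to 47.2 CPM in Control and at 26.4, 30.0 and 27.7 in SFSN-FB. Of the 6 groups only SFSN-FB was called, with a log2 change of -0.68 ± 0.07 (adjusted p = 9.01e-07, edgeR), and against the remaining SFSN groups' mean it was -0.62 ± 0.06 (adjusted p = 6.14e-07, edgeR). The mean over the 6 groups, -0.16 ± 0.06, was 0.03 and not called under total-count scaling.

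Of the 6 replication genes, Cdc45 was higher in all groups and Cdc7 parted them. Cdc45 (gene ID 287961) encodes a subunit of the replicative helicase. It lay at 11.7 to 12.5 CPM in Control and at 16.0 to 20.3 in SFSN-EC, 18.1 to 22.2 in SFSN-Ot, 16.1 to 20.2 in SFSN-TC, 20.2 to 23.3 in SFSN-FB, 20.4 to 27.5 in SFSN-Neu and 16.7 to 22.0 in SFSN-Adipo. No SFSN library overlapped Control, while the SFSN groups overlapped each other. The log2 fold change was 0.72 ± 0.11 over the groups and 0.56 ± 0.14 to 0.93 ± 0.14 within them, and the call held in every alternative run (adjusted p for the mean = 4.84e-05, edgeR). A difference among the SFSN groups was not called (adjusted p = 0.165, edgeR).

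Cdc7 encodes the kinase that fires loaded replication origins, and Dbf4 its activating subunit. Cdc7 stood at 13.4 to 14.9 CPM in Control, 16.3 to 21.4 in SFSN-Adipo, 19.2 in each SFSN-TC library, 16.4 to 17.1 in SFSN-Neu, 14.6 to 17.7 in SFSN-EC, 8.36 to 10.1 in SFSN-Ot and 6.11 to 7.91 in SFSN-FB. SFSN-Ot and SFSN-FB lay under Control, and SFSN-TC, SFSN-Neu and SFSN-Adipo above it. The log2 change against Control was 0.45 ± 0.11 in SFSN-TC and 0.46 ± 0.11 in SFSN-Adipo, -0.57 ± 0.12 in SFSN-Ot and -1.01 ± 0.12 in SFSN-FB (adjusted p = 0.00416, 0.0034, 0.000938 and 2.7e-06, edgeR), so the mean over groups was near 0 (-0.03 ± 0.09). Dbf4 did not follow it: it was called higher in SFSN-Ot (0.37 ± 0.11) and SFSN-TC (0.42 ± 0.11) and was 0.05 ± 0.11 in SFSN-FB.

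Cdc6 and Cdt1, which load the helicase at origins, were called only once each against Control, Cdc6 in SFSN-Adipo (0.31 ± 0.12, adjusted p = 0.0483) and Cdt1 in SFSN-Neu (0.30 ± 0.11, adjusted p = 0.0473), and neither was called by DESeq2 in place of edgeR. Both were lower in SFSN-FB than in the remaining SFSN groups' mean, Cdc6 by a log2 difference of -0.43 ± 0.10 and Cdt1 by -0.30 ± 0.09 (adjusted p = 0.0027 and 0.0199, edgeR). Cdt1 lost this call when any SFSN-FB library was left out. Gmnn, which encodes geminin, the inhibitor of Cdt1, was called higher in SFSN-EC, SFSN-Ot, SFSN-FB and SFSN-Neu (0.47 ± 0.17 to 0.66 ± 0.17). Without SFSN-EC library 1 the SFSN-EC value was 0.32 and not called (adjusted p = 0.128, edgeR), and without Control library 1 the calls in SFSN-EC, SFSN-Ot and SFSN-FB and that of the mean were lost. The SFSN-FB call was also lost without its library 1, and the SFSN-Ot call without any 1 of its libraries.

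More mitosis genes were called higher than lower in all 6 groups. In SFSN-EC 16 of the 26 tested were called higher and 1 lower, in SFSN-Adipo 16 and 1, in SFSN-Neu 14 and 1, in SFSN-TC 13 and 0, in SFSN-Ot 8 and 2, and in SFSN-FB 7 and 2. The higher calls were 61.5% of the mitosis genes in SFSN-EC, where 17.7% of all genes tested were called higher, and 26.9% in SFSN-FB, close to 21.5% of all genes tested. Their median log2 fold change was 0.35 to 0.38 in SFSN-EC, SFSN-TC, SFSN-Neu and SFSN-Adipo, 0.14 in SFSN-Ot and 0.09 in SFSN-FB, beside 0.00 to 0.02 for all genes tested. The 6 genes Ccna2, Ccnb1, Aurkb, Bub1, Bub1b and Cdc14a were called higher in every group.

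Ccnb1 (gene ID 25203), cyclin B1, the partner of Cdk1 at the start of mitosis, lay at 70.5, 71.4 and 73.5 CPM in Control. It was at 97.6 to 102 in SFSN-EC, 95.5 to 102 in SFSN-Neu, 94.6 to 99.8 in SFSN-Adipo, 92.5 to 101 in SFSN-TC, 80.5 to 87.6 in SFSN-Ot and 75.6 to 86.8 in SFSN-FB. All 18 SFSN libraries were above Control, and SFSN-Ot and SFSN-FB were under the other 4 groups with no overlap. The log2 fold change was 0.37 ± 0.04 over the groups (adjusted p = 1.9e-06, edgeR), 0.42 ± 0.06 to 0.47 ± 0.06 in the upper 4 groups, 0.22 ± 0.06 in SFSN-Ot and 0.20 ± 0.06 in SFSN-FB.

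Ccna2, cyclin A2, acts in both DNA synthesis and the approach to mitosis. It ran from 84.7 to 97.2 CPM in Control, from 133 to 140.0 in SFSN-TC and from 95.9 to 109 in SFSN-FB, the only SFSN group that overlapped Control. Its log2 fold change was 0.58 ± 0.06 in SFSN-TC and 0.18 ± 0.06 in SFSN-FB (adjusted p = 1.46e-07 and 0.0134, edgeR), the latter lost without SFSN-FB library 1 or Control library 2. Cdk1 (gene ID 54237), the mitotic kinase, was at 92.4, 105 and 101 CPM in Control, 128 to 129 in SFSN-Adipo, 123 to 125 in SFSN-TC, 129 to 152 in SFSN-Neu, 112 to 161 in SFSN-EC, 109 to 132 in SFSN-Ot and 107 to 124 in SFSN-FB. Every SFSN library lay above every Control library, but SFSN-Ot (0.25 ± 0.11) and SFSN-FB (0.19 ± 0.11) were not called. In SFSN-EC the log2 fold change of Cdk1 was 0.38 ± 0.11 (adjusted p = 0.013, edgeR) and, without library 1, 0.20 and not called (adjusted p = 0.0792, edgeR). Without Control library 1 the SFSN-EC, SFSN-TC and SFSN-Adipo calls were lost, and the SFSN-TC call (0.32 ± 0.11) was also lost when any of its own libraries was left out.

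**Figure D3:**
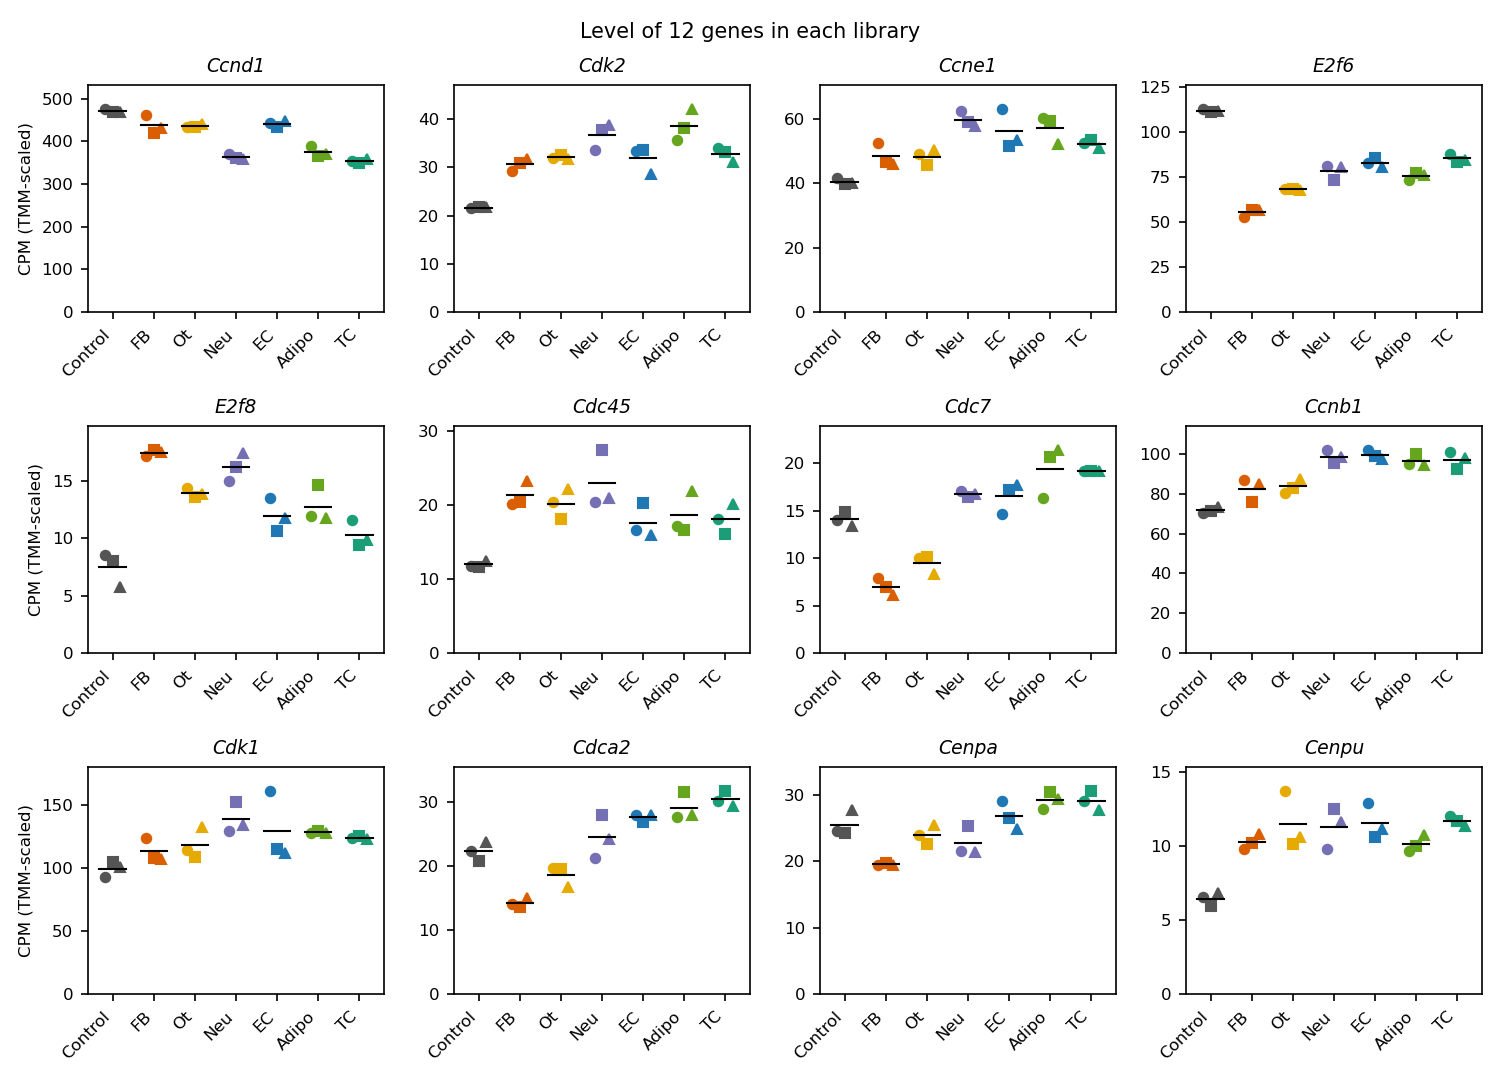
Level of 12 cycle genes in each library, in TMM-scaled CPM on axes that start at 0. Circles, squares and triangles are libraries 1, 2 and 3, and bars are group means. Cdk2, Ccne1, Cdc45, Ccnb1 and Cdk1 lie above Control in every SFSN library, Ccnd1 and E2f6 under it, and Cdc7 and Cdca2 lie under Control in SFSN-FB and SFSN-Ot and above it in SFSN-TC and SFSN-Adipo.

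The RefSeq promoters of 3 of these mitosis genes and of Cdc45 are printed to show how the motifs counted over the roles are laid out in single promoters. Each line holds the 150 bases before the annotated start in the GRCr8 assembly, read 5′ to 3′ on the gene's strand: Cdk1 at chr20:19265143-19265292, plus strand, Ccnb1 at chr2:33655226-33655375, minus strand, Cdc20 at chr5:137255800-137255949, minus strand, and Cdc45 at chr11:95690028-95690177, plus strand. Capitals mark matches to an E2F motif (TTTCCCGC, TTTGGCGC, TTTCGCGC or TTTGCCGC), the cell cycle homology region or CHR (TTTGAA or TTTAAA) and the CCAAT box, on either strand, so that ATTGG is a CCAAT box read on the other strand. TTTAAA reads the same on both strands, and no E2F motif contains a CHR or a CCAAT box.
Cdk1: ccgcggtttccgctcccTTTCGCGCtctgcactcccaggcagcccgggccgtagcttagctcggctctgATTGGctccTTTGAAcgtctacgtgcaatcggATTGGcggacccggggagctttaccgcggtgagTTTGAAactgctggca
Ccnb1: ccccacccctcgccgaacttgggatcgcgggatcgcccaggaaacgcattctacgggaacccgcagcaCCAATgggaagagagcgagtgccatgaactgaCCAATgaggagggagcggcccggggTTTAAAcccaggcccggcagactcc
Cdc20: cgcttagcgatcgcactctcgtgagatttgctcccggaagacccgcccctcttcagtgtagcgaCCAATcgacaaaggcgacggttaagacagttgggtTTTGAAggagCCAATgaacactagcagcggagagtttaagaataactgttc
Cdc45: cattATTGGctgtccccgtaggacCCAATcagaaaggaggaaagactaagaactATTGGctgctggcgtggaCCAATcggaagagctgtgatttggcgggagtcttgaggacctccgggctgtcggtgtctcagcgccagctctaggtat

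In these windows Cdk1 held an E2F motif 133 bases before the start, CCAAT boxes at 81 and 49, and CHR letters at 72 and 16. Ccnb1 held CCAAT boxes at 82 and 50 and a CHR match at 25, and Cdc20 a CHR match at 51 between CCAAT boxes at 86 and 41. Cdc45 held 4 CCAAT boxes and neither of the other motifs as spelled above. Its letters tttggcgg differ from the listed TTTGGCGC in the last base only and were not counted. Other spellings of an E2F site were not searched, here or in the shares below. RefSeq windows of 300 bases (250 before the start, 50 after) were found for 85 of the 106 genes, 91 windows in all. A CHR match stood in 52.6% of the 57 windows of entry, replication, mitosis and centromere genes, in 28.3% of all 33469 promoters of the table and in 19.8% of those of the genes tested. CHR and CCAAT together stood in 42.3% of the 26 mitosis windows, 23.5% of the 17 centromere windows, 22.2% of the 9 entry windows, 0 of 5 replication windows, 11.3% of all promoters and 8.28% of those of the genes tested. An E2F motif stood in 2 of 9 entry windows, 2 of 5 replication windows, 1 of 26 mitosis windows and 0 of 17 centromere windows, in 2.14% of all promoters and in 3.57% of those of the genes tested. The motifs did not follow the calls gene by gene. The uncalled Ccnb2, Birc5 and Cks2 held both CHR and CCAAT, as did Cdc27, called lower for the mean on the TMM scale. Cenpu, called higher in all 6 groups, held none of the 3 motifs. A match is a description of letters and was not tested as a binding site.

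Regulators of the metaphase to anaphase step differed in the order of groups. Bub1, a checkpoint kinase, was at 57.2 to 60.5 CPM in Control and, over all SFSN libraries, 72.3 to 92.1, and here SFSN-FB (84.3 to 90.0) was among the highest and SFSN-EC (72.3 to 75.5) the lowest. Its log2 fold change was 0.59 ± 0.06 in SFSN-FB and 0.33 ± 0.06 in SFSN-EC, and SFSN-EC was under the remaining SFSN groups' mean by a log2 difference of -0.22 ± 0.04 (adjusted p = 0.00587, edgeR). Bub1b, its partner in the spindle checkpoint, was at 25.8 to 29.2 CPM in Control and reached 45.4 to 50.6 in SFSN-Neu (0.80 ± 0.11, adjusted p = 1.8e-05, edgeR). Cdc20, which activates the anaphase-promoting complex, was called higher in SFSN-EC, SFSN-TC, SFSN-Neu and SFSN-Adipo (0.40 ± 0.09 to 0.58 ± 0.09) and not in SFSN-Ot (0.21 ± 0.09) or SFSN-FB (0.16 ± 0.09).

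Espl1 encodes separase, the protease that parts sister chromatids. It lay at 21.7 to 27.5 CPM in Control, 24.8 to 26.0 in SFSN-Ot and 23.6 to 29.6 in SFSN-FB, and at 31.6 to 43.2 in the other 4 groups, which did not overlap these 3. Its log2 fold change was 0.65 ± 0.12 to 0.82 ± 0.12 in the 4 groups, 0.10 ± 0.12 in SFSN-Ot and 0.13 ± 0.12 in SFSN-FB. Aurkb, the kinase of the chromosomal passenger complex, was called higher everywhere, from 0.41 ± 0.08 in SFSN-FB to 0.77 ± 0.08 in SFSN-TC (adjusted p = 0.000363 and 3.11e-07, edgeR), while Aurka, the spindle pole kinase, was called only in SFSN-EC (0.20 ± 0.06, not by DESeq2 or without library 2 or 3 of that group) and SFSN-Adipo (0.21 ± 0.06). Cdc14a, a phosphatase, had the largest rise of the class, from 6.55 to 7.56 CPM in Control to 13.3 to 17.0 in SFSN-Neu (1.14 ± 0.11, adjusted p = 2.35e-07, edgeR). Cdc25b, which activates Cdk1, was called higher in SFSN-EC, SFSN-TC, SFSN-Neu and SFSN-Adipo, at 0.39 ± 0.07 to 0.57 ± 0.07, and was not called in SFSN-Ot or SFSN-FB.

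Not every mitosis gene changed. Ccnb2 (cyclin B2), Birc5 (survivin, a passenger protein), Cks2 (a Cdk-binding subunit), Aurkc, Cdc14b, Cdc23 and Cdc26 were called in none of the 6 comparisons with Control. Birc5 ran from 11.2 to 17.3 CPM within Control alone, and from 12.6 to 24.4 in the SFSN libraries. Ccnb2 was at 17.6 to 20.8 CPM in Control and, over all SFSN libraries, 14.7 to 27.2. Cdc27, a core subunit of the anaphase-promoting complex, was the 1 mitosis gene called lower in the mean of the groups, with a log2 change of -0.24 ± 0.04 (adjusted p = 7.88e-05, edgeR). That call was lost under total-count scaling and on log2 TPM, where no mitosis gene was called lower for the mean. Per length, Cdc27 stood at 36.6 TPM in Control, and SFSN group means ran from 30.9 in SFSN-FB to 38.6 in SFSN-TC.

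Of the 18 centromere genes, 12 were called higher in SFSN-TC, 11 in SFSN-Adipo, 10 in SFSN-EC, 5 in SFSN-Neu, 4 in SFSN-Ot and 2 in SFSN-FB, and lower calls were 1, 0, 0, 0, 2 and 2. The higher calls were 66.7% of the centromere genes in SFSN-TC, where 19.3% of all genes tested were called higher. They were 22.2% in SFSN-Ot, near its 20.2% of all genes tested, and 11.1% in SFSN-FB, under its 21.5%. Cenpu (gene ID 306464), a subunit of the inner kinetochore network, was the only one called higher in all 6. It lay at 5.92 to 6.81 CPM in Control and, over all SFSN libraries, 9.64 to 13.7, with no overlap, and its log2 fold change was 0.78 ± 0.10 (adjusted p = 6.6e-06, edgeR). Cenpo, of the same network, was highest in SFSN-Adipo at 9.88 to 10.5 CPM against 5.42 to 6.17 in Control (0.82 ± 0.13, adjusted p = 9.17e-05, edgeR). Cenpe, a kinetochore motor, and Cenpf, a kinetochore and nuclear matrix protein, were called higher in SFSN-EC, SFSN-TC and SFSN-Adipo, with 0.41 ± 0.07, 0.49 ± 0.07 and 0.40 ± 0.07 for Cenpe, and Cenpf also, at 0.21 ± 0.08, in SFSN-Neu, where DESeq2 did not call it. The SFSN-EC call of Cenpf (0.25 ± 0.08) was lost without library 2 or 3 of that group.

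The proteins that mark the centromere itself behaved differently. Cenpa, the histone variant on which the kinetochore is built, was at 24.3 to 27.7 CPM in Control, 27.7 to 30.6 in SFSN-TC, 27.9 to 30.4 in SFSN-Adipo and 19.5 to 19.7 in SFSN-FB. SFSN-FB lay under every other library. Its log2 change against Control was -0.38 ± 0.08 (adjusted p = 0.00124, edgeR), not called under total-count scaling or on log2 TPM, and against the remaining SFSN groups' mean -0.42 ± 0.07 (adjusted p = 0.00012, edgeR). Cenpc, which binds Cenpa, was called higher in SFSN-TC (0.38 ± 0.07), SFSN-Adipo (0.25 ± 0.07) and SFSN-EC (0.22 ± 0.07). It was called lower in SFSN-Ot (-0.32 ± 0.07) and SFSN-FB (-0.47 ± 0.07). The SFSN-Ot call was lost under total-count scaling and on log2 TPM, where no centromere gene was called lower in that group. Cenpb, which binds centromeric repeat DNA, was called only in SFSN-TC, lower (-0.41 ± 0.10), a call lost under total-count scaling. Cenpv was called only in SFSN-Ot, also lower (-0.67 ± 0.24). That call was lost without any 1 of the SFSN-Ot libraries, under total-count scaling and on log2 TPM. Cenpk, Cenpm and Cenpq were called in no group.

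A difference among the 6 SFSN groups themselves, which does not involve Control, was called for 51 of the 103 cycle genes, where 34.1% of all genes tested were called. By role these were 15 of 26 mitosis genes, 11 of 18 centromere genes, 9 of 18 entry genes, 2 of 6 replication genes and 14 of 35 others. SFSN-FB lay apart most. Against the 5 remaining SFSN groups' mean it was lower in 40 of the 103 and higher in 4, where 12.2% of all genes tested were called lower and 12% higher. The lower calls took 13 of 26 mitosis genes, 9 of 18 centromere genes, 4 of 6 replication genes, 6 of 18 entry genes and 8 of 35 others, and no mitosis, centromere or replication gene was called higher. Under total-count scaling the split was 40 and 4 as well.

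SFSN-Ot was lower than the remaining SFSN groups' mean in 18 and higher in 5 (background 7.1% lower and 7.9% higher), with Cdc7 (-0.64 ± 0.10) and Espl1 (-0.51 ± 0.09) the lowest by fold. SFSN-TC was the reverse, with 23 higher and 7 lower (background 7.64% and 7.91%), 8 of them mitosis and 7 centromere genes. Its count of 30 became 12 without library 2 and 14 without library 3 of that group, and that of SFSN-Ot went from 23 to 13 without its library 1 and to 10 without its library 2. SFSN-Adipo had 11 higher and 2 lower (background 5.71% and 4.78%), 4 centromere and 4 mitosis genes among the higher, and 5 calls in all without its library 2 or its library 3. In SFSN-EC 9 were higher and 2 lower (background 3.17% and 2.84%), and 7, 5 and 5 were called without its library 1, 2 and 3. SFSN-Neu had 9 higher and 4 lower (background 6.7% and 5.48%). Its total of 13 ranged from 6 without its own library 1 or 3 to 21 without SFSN-EC library 1; it was 7 without its own library 2 and 8 without SFSN-EC library 2 or 3, SFSN-FB library 3, SFSN-Ot library 1 or SFSN-TC library 3.

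**Figure D4:**
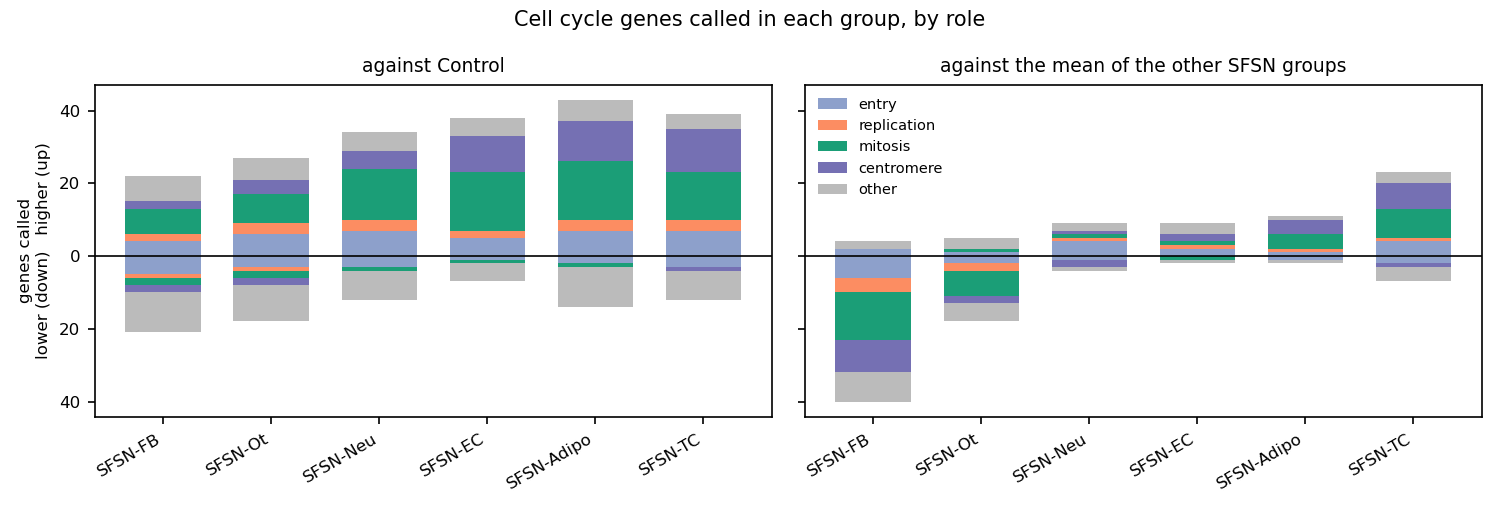
Number of cycle genes called higher (bars up) and lower (bars down) of 103 tested, by role (colour), in each SFSN group against Control (left) and against the remaining SFSN groups' mean (right). In the right panel SFSN-FB has 40 lower calls and SFSN-TC 23 higher calls, the most in each direction.

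Without the 2 libraries that stand apart, the split against the other SFSN groups was 10 higher and 1 lower in SFSN-EC, 7 and 3 in SFSN-Neu, 6 and 42 in SFSN-FB, 5 and 23 in SFSN-Ot, 24 and 7 in SFSN-TC and 14 and 2 in SFSN-Adipo. These counts, too, have no share of all genes called beside them. Cdca2 shows the contrast within a single gene. It encodes a chromosome-bound regulator of protein phosphatase 1 in late mitosis. It was at 20.8 to 23.8 CPM in Control, 29.4 to 31.7 in SFSN-TC, 27.7 to 31.6 in SFSN-Adipo, 26.9 to 28.0 in SFSN-EC, 21.3 to 27.9 in SFSN-Neu, 16.7 to 19.6 in SFSN-Ot and 13.6 to 15.0 in SFSN-FB. SFSN-FB and SFSN-Ot lay under all other libraries and apart from each other. The log2 change against Control was 0.45 ± 0.09 in SFSN-TC and -0.65 ± 0.10 in SFSN-FB (adjusted p = 0.000878 and 3.05e-05, edgeR), and SFSN-FB against the remaining SFSN groups' mean was -0.85 ± 0.08 (adjusted p = 2.94e-07, edgeR).

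Counted over the 6 comparisons with Control, which share their Control libraries, 15 of the 103 cycle genes (14.6%) were called higher in all 6, compared with 8.5% of all genes tested. They were Ccne1, Cdk2, E2f8, Cdc45, the 6 mitosis genes named above, Cenpu, Cdc42se2, Cdca7l, Cdk19 and Cdk20. The 5 called lower in all 6 (4.85%, compared with 8.97% of all genes tested) were E2f6, Cdca4, Cdk14, Cdc42ep2 and Cdc42ep4. None of the mitosis, centromere or replication genes was among these 5. A further 25 (24.3%, compared with 36.5%) were called in none.

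Among the 35 genes with a cycle name but another or unsettled role, lower calls outnumbered higher ones in all groups but SFSN-EC, where they were 5 and 5. Under total-count scaling or on log2 TPM higher calls outnumbered lower ones in all 6. Both scalings also raised the median of all genes, and the shares of all genes called under them are not given here. Cdca7l, known as an interactor of the Myc protein, had the largest rise of all cycle genes, from 3.65 to 5.17 CPM in Control to 10.7 to 12.7 in SFSN-Neu (1.40 ± 0.16) and 10.2 to 12.2 in SFSN-FB (1.31 ± 0.16; adjusted p = 1.2e-06 and 2.59e-06, edgeR). Cdca4, a regulator of E2F-dependent transcription, was at 135 to 145 CPM in Control and, over all SFSN libraries, 70.2 to 102 (-0.67 ± 0.05, adjusted p = 1.8e-09, edgeR). Cdk14, a kinase of the Wnt receptor pathway, was at 550.0 to 566 CPM in Control and, over all SFSN libraries, 374 to 447 (-0.44 ± 0.03, adjusted p = 2.34e-10, edgeR). Cdk19, of the transcriptional Mediator complex, was higher (0.42 ± 0.07), as was Cdk20 (0.48 ± 0.09). Cdk8, the close relative of Cdk19, was lower on the TMM scale (-0.13 ± 0.05, adjusted p = 0.0369, edgeR). Its side under the other scalings is not given here. Of these 35 genes, 10 were called lower for the mean on the TMM scale and 3 under total-count scaling or on log2 TPM.

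The effectors of the small GTPase Cdc42, which shape the actin cytoskeleton, did not move as a family. Cdc42ep2 was at 22.4 ± 1.23 CPM (SD, n = 3) in Control and ran from 7.38 to 15.5 over the 18 SFSN libraries, with no overlap (-0.96 ± 0.10, adjusted p = 2.72e-07, edgeR). Cdc42ep3 parted the groups in the direction opposite to Cdc7. It was at 39.5 to 51.9 CPM in Control, 70.7 to 81.8 in SFSN-FB, 57.5 to 68.6 in SFSN-Ot, and 25.1 to 26.2 in SFSN-TC, the lowest of all. The log2 change was 0.69 ± 0.11 in SFSN-FB and -0.89 ± 0.12 in SFSN-TC (adjusted p = 6.1e-05 and 6.85e-06, edgeR). Cdc42ep4 was lower in all groups, by log2 changes of -0.23 ± 0.06 to -0.40 ± 0.06, but under total-count scaling and on log2 TPM it was called in SFSN-FB only. Cdc42se2 was higher in all, by 0.20 ± 0.06 to 0.36 ± 0.06. Cdc42 itself was called only in SFSN-Adipo, with a log2 change of -0.23 ± 0.08 (adjusted p = 0.0303, edgeR). Per length it was not lower there, at 784 ± 23.6 TPM in SFSN-Adipo and 781 ± 18.3 in Control (SD, n = 3).

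**Figure D5:**
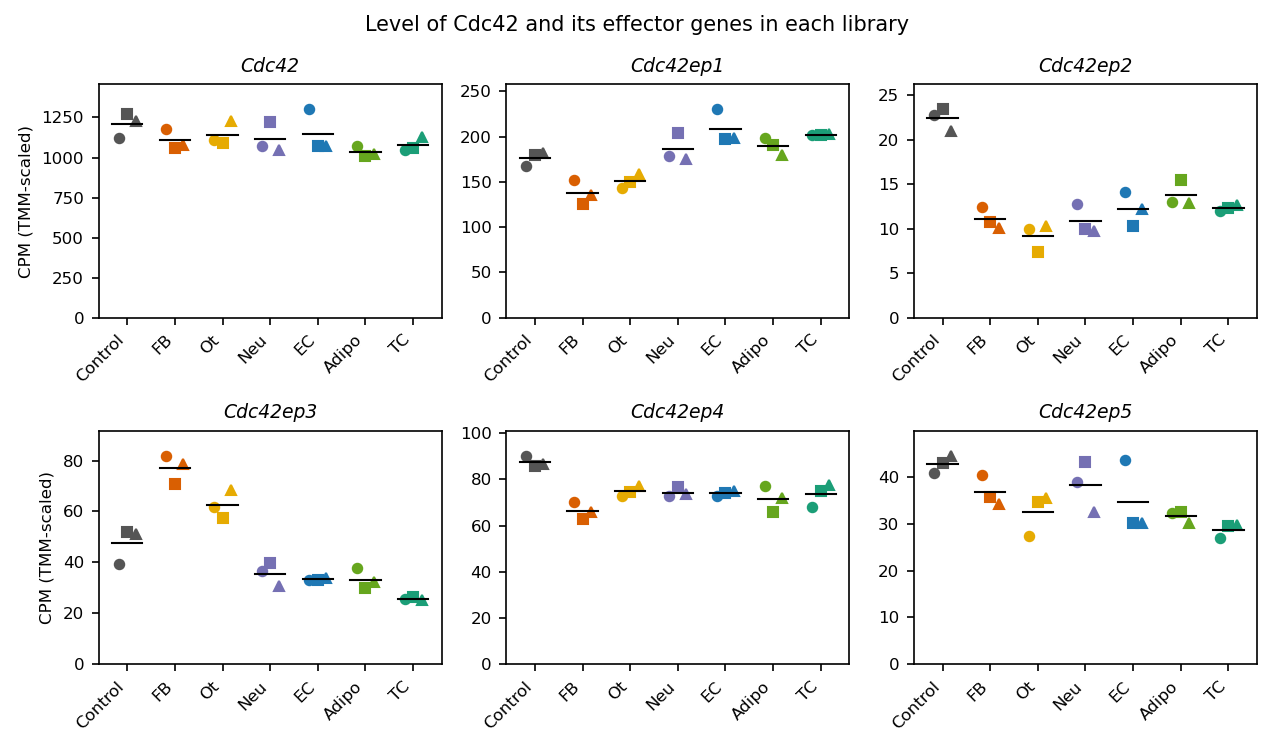
Level of Cdc42 and of its effector genes Cdc42ep1 to Cdc42ep5 in each library, in TMM-scaled CPM on axes that start at 0. Circles, squares and triangles are libraries 1, 2 and 3, and bars are group means. Cdc42ep2 lies under Control in every SFSN library, and Cdc42ep3 is highest in SFSN-FB and lowest in SFSN-TC.

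Other genes of replication and mitosis, taken from lists written for this comparison, were also higher in most groups. Of 26 tested genes of the replication and repair fork, 19 were called higher and 0 lower in the mean of the SFSN groups, with a median log2 fold change of 0.40, where 23.5% of all genes tested were called higher and 22.4% lower. Clspn, a mediator of the replication checkpoint, and Brca2, of recombination repair, led with 0.91 ± 0.10 and 0.88 ± 0.11 (adjusted p = 4.74e-07 and 2.68e-06, edgeR). Of 35 spindle and cytokinesis genes 29 were higher and 1 lower, with a median of 0.43. The spindle motor Kif15 and the kinetochore scaffold Knl1 were both at 0.77 ± 0.10, and the lower gene was Fbxo5, an inhibitor of the anaphase-promoting complex, at -0.45 ± 0.05 (adjusted p = 2.12e-06, edgeR). In SFSN-FB the same 35 genes gave 14 higher and 4 lower calls with a median of 0.18, compared with 32 and 1 and 0.63 in SFSN-TC. The fork genes gave 11 higher and 2 lower calls in SFSN-FB, 42.3% higher where 21.5% of all genes tested were, with a median of 0.27, and their mean level per library was 0.23 to 0.32 above Control on the log2 scale. These lists were drawn up with earlier results of these data known.

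The inhibitors of the cycle kinases did not move together. Of the 7 tested, Cdkn1a (p21) was called higher in the mean of the groups (0.21 ± 0.07, adjusted p = 0.0191), and Cdkn1b (p27; -0.24 ± 0.05, adjusted p = 0.000688) and Cdkn2b (p15; -0.17 ± 0.04, adjusted p = 0.00232) lower (edgeR). Cdkn2b was called higher in SFSN-FB (0.24 ± 0.05) and in SFSN-Ot (0.17), and lower in the other 4 groups, down to -0.49 in SFSN-Adipo. In SFSN-FB, Cdkn1a was higher (0.40 ± 0.09) and Cdkn1b lower (-0.44 ± 0.07). These changes are on the TMM scale. Values under total-count scaling and on log2 TPM, which raised the median of all genes, are not given for the pathway and marker lists.

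Markers of macrophages and leukocytes were also higher in the mean of the SFSN groups, though unevenly between groups and markers. Of 18 such genes 17 passed the filter, Cd163 with 0 to 1 counts per library being the exception, and 12 were called higher and 0 lower in the mean of the groups (median log2 fold change 0.48), where 23.5% of all genes tested were called higher and 22.4% lower. Their summed level was 766 to 784 TPM in Control, 829 to 861 in SFSN-Ot, 979 to 1037 in SFSN-TC, 993 to 1001 in SFSN-EC, 1033 to 1118 in SFSN-FB, 1342 to 1429 in SFSN-Adipo and 1359 to 1407 in SFSN-Neu. Lyz2 made up 498 to 984 TPM of it. SFSN-TC, among the upper groups in mitosis genes, had a median of 0.08 over these markers and SFSN-FB, lowest in mitosis genes, 0.77. SFSN-Neu and SFSN-Adipo, also upper groups in mitosis genes, had 1.02 and 0.65. Adgre1, the macrophage surface receptor, rose most (2.42 ± 0.09) and Itgam was at 1.00 ± 0.12. By group, higher and lower calls were 14 and 0 in SFSN-Neu, 12 and 0 in SFSN-Adipo, 9 and 1 in SFSN-FB. They were 8 and 2 in SFSN-Ot, 7 and 0 in SFSN-EC and 3 and 3 in SFSN-TC. Over these groups 17.7% to 21.5% of all genes tested were called higher and 15.6% to 21.2% lower. Cd68 was at 30.0 CPM in Control, 20.7 in SFSN-Ot, 22.4 in SFSN-TC and 38.3 in SFSN-Neu (group means). Erythroid markers gave 7 to 19 counts in all per library over 8 genes, none of which passed the filter. Of 9 stem cell markers 4 were lower and 1 higher, beside the same shares of all genes tested, led by Cxcl12 (-0.87 ± 0.02) and Itgb1 (-0.63 ± 0.06), with Eng at 0.12. The part of other cell types in the cycle gene results was not tested.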

How the data were processed

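Total RNA of 21 libraries in 7 groups of 3 was measured. Per the submitters' processing notes, reads were filtered with SOAPnuke 2.2.1, aligned with HISAT2 2.2.1 and Bowtie2 2.4.5 (build Rnor_6.0), and counted with RSEM 1.3.1. The authors deposited expected counts per gene, which RSEM assigns in part to genes that share reads, together with TPM and FPKM values. Of the deposited nonzero expected counts 84.4% were whole (92.9% for the cycle genes), and they were rounded. TPM, deposited by the authors, was used for levels between genes and in an alternative. The deposited FPKM values served only to derive relative gene lengths for the alternative that removes a gene-length trend. A further 49 value columns were not used. The table held 9998 genes up to Map2k1 in alphabetical order, 38.9 to 41.6% of each library's TPM, so scaling rests on these genes, and later genes were not analysed here. It listed 26 symbols turned into dates, which were restored; none was a cycle gene.

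Counts were fitted with edgeR 4.0.16 (R 4.3.3; quasi-likelihood, TMM scaling, filterByExpr, 6659 genes, 1 fit over all 7 groups, called at an adjusted p under 0.05). CPM are TMM-scaled. Alternatives used DESeq2 1.42.0, limma 3.58.1 on log2(TPM + 1), RLE or total-count scaling, other filters, only the groups compared, the replicate number as a block, removal of a gene-length trend, and left-out libraries. The edgeR steps were tested on simulated data. Replicate numbers were not treated as pairs: deviations from group means of same-numbered libraries correlated at -0.484 to 0.532 over 63 pairs (median 0.0067). The cycle genes, roles, marker and pathway lists were chosen with earlier results of these data known. Named genes are the canonical ones of each role, and by size of change and recurrence those highest, lowest or called in all 6 groups. Cdc27, Cdk8, Cdk19, Cdk20, Cdc42, Cdc42ep4, Cdc42se2, Aurkc, Cdc14b, Cdc23, Cdc26, Cenpb, Cenpk, Cenpm and Cenpq were added after their values were seen where the rule did not give them. Promoter windows are RefSeq's, GRCr8.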

Additional observations from a re-analysis of the deposited data

Results flagged for a closer look

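For 7 cycle genes, calls against Control went in opposite directions in different SFSN groups. Having been picked for that, they were bound to differ among the groups, and the adjusted p of that difference (edgeR, over all genes tested) is given as a description only. Such opposite calls were made for 6.8% of the cycle genes tested and 2.97% of all genes tested. The adjusted p of the difference among groups was 7.83e-08 for Cdc7, 3.51e-07 for Cdca2 and 2.35e-07 for Cenpc, each lower than Control in SFSN-FB and SFSN-Ot and higher in SFSN-TC and SFSN-Adipo. The SFSN-Ot calls of Cdca2 and Cenpc were lost on log2 TPM, where no mitosis or centromere gene was called lower in that group. The adjusted p was 1.38e-08 for Cdc42ep3, whose direction was the reverse in SFSN-FB, SFSN-Ot, SFSN-TC and SFSN-Adipo.

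For Cdc42ep1, an effector of Cdc42, the adjusted p was 2.72e-05 (edgeR), with a log2 change of -0.36 ± 0.08 in SFSN-FB, -0.23 ± 0.08 in SFSN-Ot and 0.24 ± 0.08 in SFSN-EC. For E2f5, which acts with the p130 pocket protein, it was 6.18e-05, with -0.27 ± 0.07 in SFSN-FB and 0.27 ± 0.07, 0.26 ± 0.07 and 0.22 ± 0.07 in SFSN-EC, SFSN-TC and SFSN-Neu. For Cdca7, linked to DNA methylation upkeep, it was 0.000786, with -0.45 ± 0.15 in SFSN-FB and 0.42 ± 0.14 in SFSN-Adipo. All 7 were lower in SFSN-FB except Cdc42ep3, which was higher there. The macrophage markers, whose summed level also differed between the groups, are given above, and their part in these differences was not tested.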

How the results depend on the processing

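Of 319 gene results, 207 kept their call under all 31 alternatives (21 that leave out 1 library and 10 others), and 112 lost it under at least 1. A direction turned for Ccnd1 in SFSN-Ot (0.044 under total-count scaling, 0.038 on log2 TPM), Ccnd1 in SFSN-FB (0.077 and 0.026) and Cdc25a in the mean of the groups (0.029 under total-count scaling). Both scalings raised the median of all genes in the SFSN groups; the cause was not tested. Counts of cycle genes called moved by more than 1.5 times under total-count scaling in SFSN-EC (72) and SFSN-Neu (70) against Control, on log2 TPM against the other SFSN groups in SFSN-EC (2), SFSN-Ot (15) and SFSN-Neu (7), and without a filter in SFSN-Neu (8); the cause was not tested. Leaving out 1 library gave 37 to 47 calls in SFSN-EC, 35 to 48 in SFSN-Ot, 47 to 56 in SFSN-TC, 35 to 45 in SFSN-FB, 38 to 48 in SFSN-Neu, 47 to 61 in SFSN-Adipo and 43 to 61 for the mean. Against the other SFSN groups it gave 5 to 11 in SFSN-EC, 10 to 26 in SFSN-Ot, 12 to 31 in SFSN-TC, 35 to 46 in SFSN-FB, 6 to 21 in SFSN-Neu and 5 to 16 in SFSN-Adipo, and 44 to 57 for any difference among them. With the replicate block the counts were 44, 46, 51, 42, 44, 57 and 55 against Control and 9, 21, 26, 44, 9 and 13 against the other groups, in the same orders, and 46 for any difference. The shares of all genes called under these alternatives are not given here. Of 21 libraries 10 correlated best with their own number.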
